A study of Homo sapiens with 12 samples.

Results

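Caveolin genes CAV1 and CAV2 and the genes beside them in band q31 of chromosome 7 were followed in K562 cells that carry or lack the heme transporter HRG1. The 8 genes, TES, CAV2, CAV1, MET, CAPZA2, ST7, WNT2 and CTTNBP2, were taken by symbol from the 28278 genes of the count table. They were chosen by the loss of CAV2 counts in the HRG1-KO libraries, as the stretch of neighbours around it. Because that genotype difference chose them, the KO and WT levels of the 8 genes are given as a description, with no test. The butyrate comparisons within each genotype did not enter the choice and were tested. For CAV2, the loss that chose it left at most 4 counts in any KO library. Its KO butyrate and interaction tests therefore cannot decide whether CAV2 responded there.

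K562 is a human erythroleukaemia cell line that makes fetal and embryonic globins and more of them after sodium butyrate, a short-chain fatty acid that inhibits histone deacetylases. RNA sequencing libraries from 4 groups of 3 replicates were compared: untreated WT cells, butyrate-treated WT cells, untreated HRG1-KO cells and butyrate-treated HRG1-KO cells. Treated cells received 0.75 mM sodium butyrate 24 h after plating and again 48 h later, and were collected 6 h after that second dose. The series design places the cells at day 8 of differentiation, and the labels give bone marrow as the tissue. How HRG1 was knocked out, how many KO clones were used, and whether replicates were separate cultures are not given in the sources used here, so p-values measure the spread between libraries, which may be technical.

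Caveolae are small flask-shaped pits of the plasma membrane, built from caveolin proteins in the membrane and a coat of cavin proteins beneath it. Caveolin-1 is needed to form them in most tissues, while caveolin-2 joins caveolin-1 in mixed oligomers and depends on it to leave the Golgi. Caveolae are abundant in endothelial cells, fibroblasts, muscle and fat, and are scarce in blood cells. Of the neighbours, TES encodes testin, a LIM-domain protein of focal adhesions, and MET encodes the receptor for hepatocyte growth factor. CAPZA2 encodes an alpha subunit of the actin capping protein, and WNT2 a secreted WNT ligand. CTTNBP2 encodes a partner of the actin-binding protein cortactin, best known from neurons, and the function of ST7 is less settled.

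All 8 genes are protein-coding and had a position in the RefSeq table of GRCh38.p14. In order along chromosome 7 they run from TES (chr7:116210539-116258783) through CAV2 (chr7:116499738-116508541), CAV1 (chr7:116525009-116561185), MET (chr7:116672196-116798377), CAPZA2 (chr7:116862587-116922049) and ST7 (chr7:116953501-117230176), all on the plus strand. WNT2 (chr7:117275451-117323058) and CTTNBP2 (chr7:117710651-117873441) follow on the minus strand. The stretch spans 1.66 Mb, and CAV2 ends 16.5 kb before CAV1 starts.

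The promoters of the 5 genes whose KO and WT libraries stood farthest apart are shown because they let the reader compare the starts of genes that were low in KO (CAV2, CAV1, TES) with those that were high in KO (MET, CTTNBP2). Each sequence holds the 250 bases before the gene's start, read on the gene's own strand from RefSeq's GRCh38.p14 table: chr7:116499488-116499737, chr7:116524759-116525008, chr7:116210289-116210538 and chr7:116671946-116672195 on the plus strand, and chr7:117873442-117873691 on the minus strand. Capitals mark matches to the GC box GGGCGG or its reverse CCGCCC.
CAV2: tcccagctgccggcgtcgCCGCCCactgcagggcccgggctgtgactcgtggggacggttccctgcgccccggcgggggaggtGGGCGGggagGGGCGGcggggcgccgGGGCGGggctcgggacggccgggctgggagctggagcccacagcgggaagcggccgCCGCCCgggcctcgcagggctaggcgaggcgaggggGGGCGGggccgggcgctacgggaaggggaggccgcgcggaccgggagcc
CAV1: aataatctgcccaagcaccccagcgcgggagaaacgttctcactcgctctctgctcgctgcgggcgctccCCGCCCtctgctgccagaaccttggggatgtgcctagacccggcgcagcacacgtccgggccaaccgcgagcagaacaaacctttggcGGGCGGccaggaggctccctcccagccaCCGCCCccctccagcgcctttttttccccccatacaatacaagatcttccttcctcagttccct
TES: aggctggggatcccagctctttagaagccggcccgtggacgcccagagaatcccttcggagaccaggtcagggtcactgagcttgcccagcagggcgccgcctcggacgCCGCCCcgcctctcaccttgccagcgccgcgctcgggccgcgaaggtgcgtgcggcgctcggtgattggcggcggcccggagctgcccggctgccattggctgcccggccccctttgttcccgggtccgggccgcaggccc
MET: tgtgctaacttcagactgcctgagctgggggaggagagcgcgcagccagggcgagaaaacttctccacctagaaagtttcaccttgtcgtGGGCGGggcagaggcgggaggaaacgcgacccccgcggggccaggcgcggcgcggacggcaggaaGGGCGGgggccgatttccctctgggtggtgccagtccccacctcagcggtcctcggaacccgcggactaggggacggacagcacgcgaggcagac
CTTNBP2: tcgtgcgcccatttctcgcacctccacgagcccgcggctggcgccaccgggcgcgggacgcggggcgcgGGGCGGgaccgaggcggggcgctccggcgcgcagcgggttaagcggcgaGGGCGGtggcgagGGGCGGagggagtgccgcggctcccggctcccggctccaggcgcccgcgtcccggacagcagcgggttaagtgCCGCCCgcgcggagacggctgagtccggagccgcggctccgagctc

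The GC box occurred 6 times before CAV2, 3 times before CAV1, 1 time before TES, 2 times before MET and 4 times before CTTNBP2. It is common, and 42.3% of the 27305 RefSeq promoters of this length held at least 1 match. CAPZA2, ST7 and WNT2 had 1 match each. Whether GC boxes bear on the genotype differences was not tested. CpG pairs, the dinucleotide that DNA methylation acts on, numbered 35 before CAV2, 18 before CAV1, 28 before TES, 24 before MET and 45 before CTTNBP2. The median over all promoters was 11, and its upper quartile 23, so CAV2, TES, MET and CTTNBP2 were above that quartile and CAV1 was below it. CAPZA2, ST7 and WNT2 held 38, 36 and 38 CpG pairs, also above that quartile. Whether CpG pairs bear on the genotype differences was not tested. Both strands were also searched for the GATA motifs AGATAA and TGATAA, which 9.37% and 6.89% of promoters held, and for the AP-1 motif TGANTCA, which 6.6% held. TGATAA matched 1 time before WNT2, the AP-1 motif matched at 1 place before ST7 (the palindrome reads on both strands), and the other 6 promoters had no match to these 3 motifs.

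Total counts ran from 19963594 to 30348538 per library, and 15805 genes passed the filter on low counts, 7 of the 8 genes among them and WNT2 not. SLC48A1, the gene of HRG1, had 1357 to 1945 counts in the 6 WT libraries and 55 to 313 in the 6 KO libraries, so each KO library was below each WT library. All 12 listed erythroid markers were detected, with summed levels of 4249 to 41613 CPM (counts per 1000000 reads, scaled by TMM, a correction for library composition). Endothelial markers summed to 12.4 CPM at most, with CDH5, KDR and EMCN at 0 in all libraries. Replicate 1 of the butyrate-treated WT group lay at 40.9 on the second principal component, among the untreated libraries (15.3 to 75.6). Replicates 2 and 3 of both treated groups lay at -84.8 to -74.3. Replicate 1 of the treated KO group lay between them and the untreated libraries, at 4.21. Values for the 8 genes that turn on treated WT replicate 1 are given with and without it.

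CAV2, the caveolin-1 partner, was among the more abundant of the 8 genes in WT cells and nearly absent from KO cells. Untreated WT replicates 1 to 3 held 1439, 1304 and 2938 counts, or 77.9, 60.5 and 98.7 CPM. Butyrate-treated WT replicates held 585, 1058 and 1827 counts, or 30.3, 45.1 and 58.0 CPM. All 3 untreated KO libraries held 0 counts, and the treated KO libraries held 0, 0 and 4. A count of 0 allows up to 3 counts, which is 0.1003 to 0.1605 CPM in the untreated KO libraries and covers counting error only. Against that limit, mean CAV2 was at least 588-fold lower in untreated KO cells, and in treated KO cells it was 0.0965% of the treated WT mean, on 4 counts in 1 library. In bulk RNA, fewer cells of a type and less RNA per cell cannot be told apart.

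CAV1, the caveolin needed to form caveolae, was a low-abundance gene in WT cells and had 0 counts in all 6 KO libraries. Untreated WT replicates held 36, 8 and 34 counts, or 1.95, 0.371 and 1.14 CPM. Treated WT replicates held 17, 181 and 306 counts, or 0.881, 7.72 and 9.72 CPM. Replicates 2 and 3 of the treated group were thus above each untreated library, while replicate 1 lay within the untreated range. Against the limit that 0 counts allow, mean CAV1 was at least 8.58-fold higher in untreated WT than in untreated KO cells and at least 55.0-fold higher in treated WT than in treated KO cells.

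**Figure D1:**
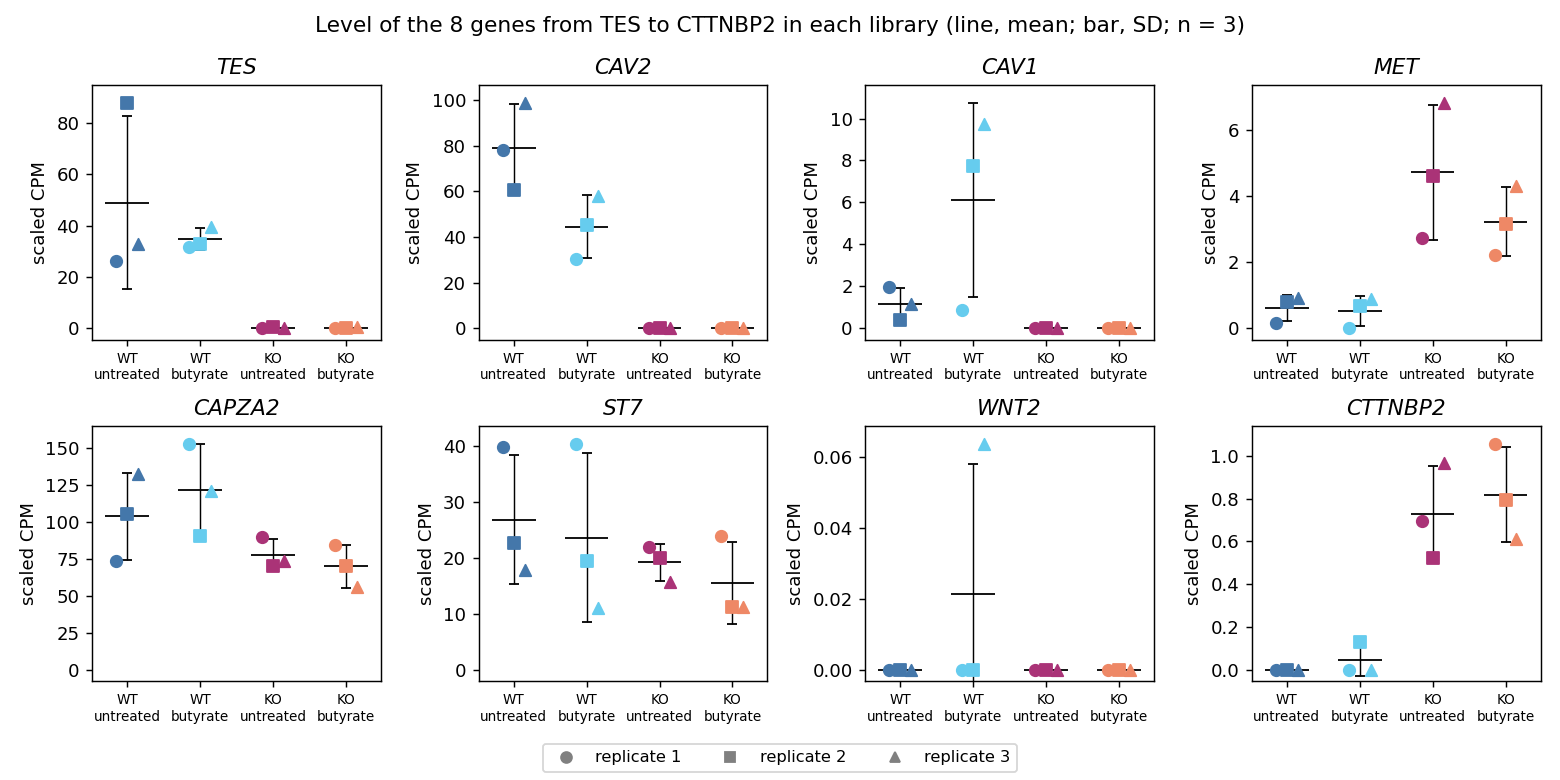
Scaled CPM (vertical axes, each panel with its own range) of the 8 genes in each of the 12 libraries, with 4 groups on the horizontal axes; points are libraries with the symbol giving the replicate number, lines are group means and bars the SD (n = 3). CAV2, CAV1 and TES lie at or near 0 in the KO groups, MET and CTTNBP2 lie above the WT libraries there, and CAPZA2 and ST7 lie in the same range in both genotypes apart from lower CAPZA2 in treated KO cells.

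Read per kilobase of exon (GENCODE 29 basic models), the only scale on which genes are compared here, CAV2 led the stretch in untreated WT cells at 19.1 ± 4.63 CPM per kb (SD, n = 3). CAPZA2 at 18.3 ± 5.19 and TES at 16.3 ± 11.2 followed within that spread. ST7 came next at 5.17 ± 2.23 CPM per kb, then CAV1 at 0.314 ± 0.215 and MET at 0.0926 ± 0.0598, with WNT2 and CTTNBP2 at 0. Butyrate-treated WT cells had CAPZA2 first at 21.4 ± 5.45 CPM per kb, followed by TES at 11.6 ± 1.39, CAV2 at 10.8 ± 3.35, ST7 at 4.56 ± 2.92, CAV1 at 1.66 ± 1.26 and MET at 0.0783 ± 0.0696. TES and CAV2 differed by less than their spread there. In untreated KO cells the order was CAPZA2 at 13.7 ± 1.83 CPM per kb, ST7 at 3.71 ± 0.629, MET at 0.706 ± 0.306, CTTNBP2 at 0.122 ± 0.0377 and TES at 0.0824 ± 0.0793, the last pair within its spread. Treated KO cells kept that order, with CAPZA2 at 12.3 ± 2.53, ST7 at 2.99 ± 1.41, MET at 0.483 ± 0.158, CTTNBP2 at 0.137 ± 0.0374 and TES at 0.0716 ± 0.115 CPM per kb.

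None of the 6 genes of the stretch tested for butyrate in WT cells passed an adjusted p of 0.05 in edgeR's quasi-likelihood test with Benjamini-Hochberg adjustment over all 15805 genes, where 2.35% of tested genes passed. That share rests on single libraries: 372 genes passed with all 12, 43 without untreated WT replicate 2 and 1243 without treated WT replicate 1. DESeq2's Wald test and the fit with the replicate number as a block also called 0 of them, and 1, CAV1, had an unadjusted p under 0.05 (0.0320). CAV2 was lower in each treated WT library than in any untreated one, at 56.3% of the untreated mean, where 21.7% of all tested genes did not overlap and 10.4% were lower in this way. Its log2 change was -0.83 (SE 0.39, edgeR quasi-likelihood adjusted p = 0.306). CAV1 had a mean 5.29-fold higher with butyrate, or 2.41 on the log2 scale (SE 0.94, edgeR quasi-likelihood adjusted p = 0.226), with overlapping groups.

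The CAV1 value turned on 1 library. Without replicate 1 of the treated WT group, the CAV1 change was 2.90 on the log2 scale with an edgeR adjusted p of 0.0476, and without all 4 libraries numbered 1 it was 3.47 with an edgeR adjusted p of 0.0146. Over the 12 fits that each left out a library, the log2 change ran from 1.91 to 2.99 and the edgeR adjusted p from 0.0476 to 0.497. CAV1 made up 2.502, 0.614 and 1.16 reads per 100 CAV2 reads in the untreated WT libraries and 2.91, 17.1 and 16.7 in the treated ones. The mean log2 ratio differed by 2.96 (two-sided exact permutation p = 0.1, the smallest that 3 against 3 allows). Markers of other cell types were read in the same libraries. For fibroblast markers, without butyrate its sum was 2.92 to 5.24 CPM in WT and 2.84 to 5.25 CPM in KO cells, and with butyrate 44.1 to 110 and 69.2 to 157 CPM, so the sum was higher in each treated library, replicate 1 of the treated WT group and the KO libraries without CAV1 reads included. Most of it was COL1A1, a collagen chain, which rose 4.71 on the log2 scale in WT (edgeR adjusted p = 0.00273) and 4.96 in KO cells (edgeR adjusted p = 0.00211), while COL1A2 and PDGFRB did not pass, LUM was at 0 and 2 of the 8 markers had 3 counts or fewer in all libraries. Endothelial marker sums were 7.79 to 12.4 CPM in WT cells without and 7.98 to 11.7 CPM with butyrate, and 1.07 to 1.67 and 3.77 to 8.82 CPM in KO cells, with 4 of 8 at 3 counts or fewer throughout. In WT cells most of the sum was PECAM1. It averaged 8.94 CPM in untreated WT and 0.764 CPM in untreated KO cells (edgeR adjusted p = 0.00704). In treated cells PECAM1 did not pass between genotypes (edgeR adjusted p = 0.206). CLDN5, the only other endothelial marker tested, passed in no comparison. Megakaryocyte marker sums were 33.5 to 60.9 CPM in WT cells without and 118 to 227 CPM with butyrate, and 15.6 to 55.4 and 81.6 to 119 CPM in KO cells. Of 8 listed, ITGA2B rose with butyrate in WT (edgeR adjusted p = 0.0463) and KO cells (edgeR adjusted p = 0.0230) and ITGB3 in KO cells (edgeR adjusted p = 0.0131), while PF4 was at 0 in all libraries. These calls held in 3, 8 and 9 of 12 leave-one-out fits, with edgeR adjusted p of 0.179 without untreated WT replicate 2, and of 0.121 and 0.0823 without untreated KO replicate 2. The part of these cell types in the CAV1 and CAV2 values was not tested.

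**Figure D2:**
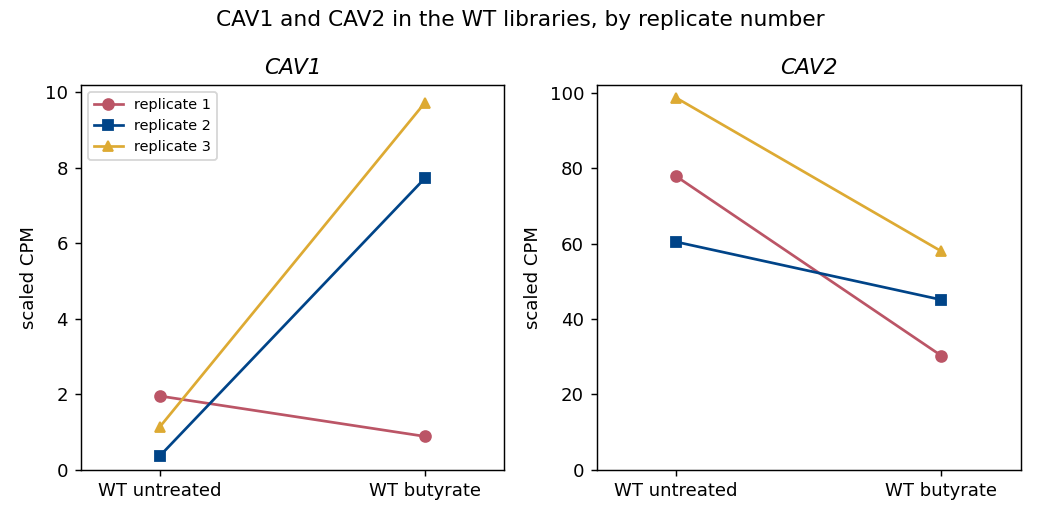
Scaled CPM of CAV1 (left) and CAV2 (right) in the 6 WT libraries, untreated and butyrate-treated on the horizontal axis; each colour and symbol is a replicate number and lines join libraries of the same number. CAV1 is at 7.72 and 9.72 CPM in treated replicates 2 and 3 and at 0.881 CPM in treated replicate 1, and CAV2 is lower with butyrate for each of the 3 numbers.

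In KO cells, the butyrate comparison was tested for 6 genes of the stretch and called 0 of them in edgeR's quasi-likelihood test, where 3.4% of all tested genes passed, and none had an unadjusted p under 0.05. The 537 genes behind that share became 48 without untreated KO replicate 2 and 1039 without treated WT replicate 1. DESeq2 and the replicate block also called 0. The test of the difference between the genotypes' butyrate responses called 0 of the 5 genes it could be run on, by edgeR's quasi-likelihood test, by DESeq2 and with the replicate block. It called 0% of all tested genes, of which 658 had an unadjusted p under 0.05, and 3 with the block. CAV2 was the 1 gene of the 5 with an unadjusted interaction p under 0.05 (0.0444, edgeR quasi-likelihood adjusted p = 1.00), which rests on the 4 counts of treated KO replicate 3. CAV2 was chosen for its low KO counts, so nothing is read from its KO butyrate and interaction tests. CAV1, WNT2 and CTTNBP2 were not given the interaction test because a genotype had 3 counts or fewer in each of its libraries.

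Genes of the caveola coat and its accessory proteins differed between genotypes in part. Of 12 listed, 9 were tested, and in untreated cells 3 were lower and 1 higher in KO, against 10.9% lower and 11.7% higher among all tested genes. The list's median log2 difference was -0.23 (0.02 over all tested genes). CAVIN2, a cavin of the coat, fell from 151 ± 40.3 CPM (SD, n = 3) in untreated WT to 8.74 ± 3.85 in untreated KO cells (log2 difference -4.10, SE 0.48, edgeR quasi-likelihood adjusted p = 7.81e-05). It passed in each of the 12 leave-one-out fits, and also differed in treated cells, 109 ± 30.6 CPM against 10.6 ± 6.59 (log2 difference -3.35, SE 0.46, edgeR adjusted p = 3.45e-04).

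EHD2, an ATPase at the neck of caveolae, was lower in untreated KO cells by the same test, 21.0 ± 11.1 against 70.5 ± 1.32 CPM (log2 -1.74, SE 0.45, edgeR adjusted p = 0.0151), in all 12 leave-one-out fits. CAVIN1, the cavin that caveola formation requires, was lower at 66.9 ± 24.4 against 143 ± 40.1 CPM (log2 -1.09, SE 0.31, edgeR adjusted p = 0.0225). That call held in 8 of 12 fits, and the edgeR adjusted p was 0.0906 without untreated KO replicate 1. CAVIN4, the muscle cavin, was higher on low counts (2.44 ± 0.649 against 0.909 ± 0.244 CPM, edgeR adjusted p = 0.0403, 3 of 12 fits, 0.1504 without untreated WT replicate 3).

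With butyrate, CAVIN1 rose in KO cells to 236 ± 76.2 CPM (log2 change 1.82, SE 0.31, edgeR adjusted p = 0.0114, 9 of 12 fits, 0.0797 without untreated KO replicate 2), and in treated cells it did not pass between genotypes (log2 -0.21, edgeR adjusted p = 0.704). In WT cells it was 273 ± 32.5 CPM with butyrate and did not pass (log2 change 0.94, SE 0.31, edgeR adjusted p = 0.134). Each treated WT library was above each untreated one, and the difference between the genotypes' CAVIN1 responses did not pass. EHD1, EHD4, PACSIN2, PACSIN3 and DNM2, which shape and cut caveolae and other membranes, passed in none of the 4 pairwise comparisons. CAV3, the muscle caveolin, had 4 counts at most, CAVIN3 had 3 at most and ROR1 was at 0. Among raft proteins that do not build caveolae, FLOT1 and FLOT2 passed in no comparison. STOM (stomatin), an abundant red cell membrane protein, was lower in untreated KO than in untreated WT cells (log2 -1.62, SE 0.28, edgeR adjusted p = 0.00126). STOM also fell with butyrate in WT cells (log2 change -1.26, edgeR adjusted p = 0.0377), a call that held in 3 of 12 fits and was at 0.165 without treated WT replicate 2.

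TES, the focal adhesion protein testin, was the other gene of the stretch with high counts in WT and few in KO cells. Untreated WT replicates held 487, 1894 and 977 counts (26.4, 87.8 and 32.8 CPM), with replicate 2 apart from the others, and treated WT replicates held 614, 771 and 1245 counts (31.8, 32.9 and 39.6 CPM). Untreated KO replicates held 5, 10 and 0 counts and treated ones 0, 1 and 19. TES in KO was 0.505% of the WT mean in untreated cells (log2 difference -7.72) and 0.619% in treated cells (-7.20). No KO library came near a WT library. The 19 counts of treated KO replicate 3 made up most of its group. Butyrate gave log2 changes of -0.50 (SE 0.72, edgeR quasi-likelihood adjusted p = 0.780) in WT and 0.02 (SE 1.04, edgeR adjusted p = 1.00) in KO cells.

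Testin works at focal adhesions with zyxin, ENA/VASP proteins, talin and others. In untreated cells 5 of 8 tested genes of that list were lower in KO and 1 was higher, against 10.9% lower and 11.7% higher among all tested genes, with a median log2 difference of -1.27 (0.02 over all). The partner lists were not split by chromosome, and 37.2% of the other tested chromosome 7 genes were lower in untreated KO cells. TLN1 (talin), which links integrins to actin, was 370 ± 92.4 CPM in untreated KO against 1008 ± 143 in untreated WT cells (log2 -1.44, SE 0.23, edgeR adjusted p = 7.06e-04, 12 of 12 fits). VASP, an actin elongation factor, was 96.1 ± 18.3 against 192 ± 14.7 CPM (log2 -1.001, SE 0.22, edgeR adjusted p = 0.00580, 12 of 12 fits). VCL (vinculin, log2 -1.75, edgeR adjusted p = 0.0266), ZYX (zyxin, -1.36, edgeR adjusted p = 0.0437) and PRICKLE1 (-3.31, edgeR adjusted p = 0.0199) passed in 7, 5 and 10 of the 12 fits. EVL, an ENA/VASP protein of blood cells, was higher at 64.7 ± 6.37 against 34.7 ± 5.22 CPM (log2 0.90, SE 0.22, edgeR adjusted p = 0.0102).

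The count of 5 lower partners fell to 2 without untreated WT replicate 3 or without untreated KO replicate 1, and to 3 without replicate 2 of either untreated group. In treated cells 1 of the 8 was lower and 1 higher in KO, against 8.89% and 10.1% of all tested genes: TLN1 (log2 -0.76, edgeR adjusted p = 0.0331, 7 of 12 fits, 0.106 without treated KO replicate 1) and EVL (1.37, edgeR adjusted p = 9.86e-04, 12 of 12 fits).

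**Figure D3:**
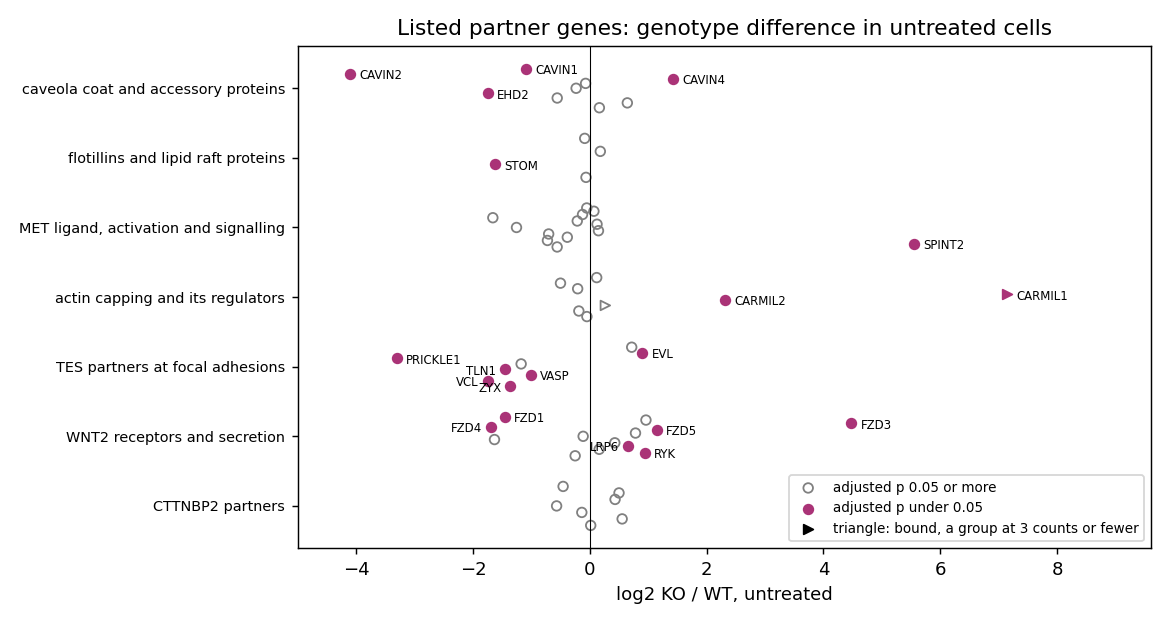
Log2 difference of untreated KO over untreated WT cells (horizontal axis) for the 62 tested partner genes, 1 row of points per list; filled points passed an adjusted p of 0.05 in edgeR's quasi-likelihood test, open ones did not, and triangles are bounds where a group had 3 counts or fewer in each library. CAVIN2 at -4.10 and PRICKLE1 at -3.31 lie farthest to the left, and CARMIL1, SPINT2 and FZD3 farthest to the right.

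MET, the receptor tyrosine kinase that binds hepatocyte growth factor, was higher in KO cells at low levels throughout. Untreated WT replicates held 3, 17 and 27 counts (0.162, 0.788 and 0.907 CPM) and treated WT replicates 0, 16 and 28 (0, 0.683 and 0.889 CPM). Untreated KO replicates held 51, 97 and 204 counts (2.73, 4.61 and 6.82 CPM) and treated KO replicates 48, 96 and 134 (2.20, 3.17 and 4.32 CPM). Each KO library was above each WT library, and the libraries numbered 1 were the lowest of their groups. Mean MET was 7.62-fold higher in untreated KO (log2 difference 2.90) and 6.16-fold higher in treated KO cells (2.58). Butyrate gave log2 changes of -0.23 (SE 0.89, edgeR adjusted p = 0.937) in WT and -0.55 (SE 0.83, edgeR adjusted p = 0.769) in KO cells.

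HGF, the gene of its ligand, had 0 counts in all 12 libraries, and 13 of the 16 listed genes of ligand activation and signalling were tested. SPINT2, an inhibitor of the proteases that activate the ligand, was the 1 gene of the 13 that differed between genotypes in untreated cells, at 31.5 ± 16.2 CPM in KO against 0.657 ± 0.417 in WT (log2 5.55, SE 0.74, edgeR adjusted p = 2.03e-04). It was also higher in treated KO cells, 56.1 ± 19.5 against 0.924 ± 0.766 CPM (log2 5.88, SE 0.74, edgeR adjusted p = 1.71e-04), and passed in 12 of 12 fits in both. Among all tested genes 11.7% were higher and 10.9% lower in untreated KO cells, and 10.1% and 8.89% in treated ones. The adaptors and effectors GAB1, GRB2, SOS1, SHC1, PTPN11, PIK3R1 and STAT3 and the ubiquitin ligase CBL passed in none of the 4 comparisons, and neither did MST1R, the sister receptor. Median log2 differences of the list were -0.21 in untreated and -0.19 in treated cells.

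CAPZA2, a capping protein subunit that blocks growth at the ends of actin filaments, was abundant in all groups. Untreated WT replicates held 73.7, 105.8 and 132.7 CPM and treated WT replicates 152.8, 90.9 and 121.4 CPM. Untreated KO replicates held 89.7, 70.1 and 73.7 CPM and treated KO replicates 84.4, 70.0 and 55.6 CPM. The untreated genotypes overlapped, with KO at 74.8% of the WT mean (log2 difference -0.42). Each treated KO library was below each treated WT library, at 57.5% of the mean (-0.80). Butyrate gave log2 changes of 0.23 (SE 0.26, edgeR adjusted p = 0.706) in WT and -0.15 (SE 0.26, edgeR adjusted p = 0.794) in KO cells.

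CAPZA1 and CAPZB, which encode the other capping protein subunits, passed in no comparison, while a pair of capping regulators was higher in untreated KO cells. CARMIL1, a membrane-bound protein that removes capping protein from filament ends, had 0, 3 and 1 counts in the untreated WT libraries and a mean of 19.1 ± 2.98 CPM in untreated KO cells, at least 142-fold higher (edgeR adjusted p = 1.31e-05). It was 27.9 ± 5.37 CPM in treated KO against 0.0959 ± 0.140 CPM in treated WT cells (edgeR adjusted p = 1.46e-05). CARMIL2, a relative expressed in blood cells, was 23.6 ± 12.04 against 4.73 ± 0.660 CPM in untreated cells (log2 2.31, SE 0.53, edgeR adjusted p = 0.00782) and did not pass in treated cells (log2 1.11, edgeR adjusted p = 0.158). Of 10 listed genes 8 were tested, and 2 were higher and 0 lower in untreated KO cells, against 11.7% and 10.9% of all tested genes, with a median log2 difference of 0.04.

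ST7 levels overlapped in all 4 pairings. Replicates 1 to 3 held 39.8, 22.7 and 17.8 CPM in untreated WT, 40.3, 19.5 and 10.96 in treated WT, 22.0, 19.97 and 15.6 in untreated KO, and 23.9, 11.2 and 11.2 in treated KO cells. Replicate 1 was the highest of its group in each case. KO was 71.7% of the WT mean in untreated (log2 difference -0.48) and 65.6% in treated cells (-0.61). Butyrate gave log2 changes of -0.18 (SE 0.46, edgeR adjusted p = 0.885) in WT and -0.31 (SE 0.46, edgeR adjusted p = 0.762) in KO cells.

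Transcripts antisense to ST7 or inside it overlap its reads, and whether counting used strand is not given in the sources used here, so their reads cannot be told apart from those of ST7. ST7-AS1 held 29 to 182 counts per library and passed in no comparison, nor did ST7-AS2. ST7-OT4 was lower in untreated KO, with 4, 2 and 8 counts against 23, 18 and 34 in untreated WT cells (log2 -2.43, SE 0.78, edgeR adjusted p = 0.0400), a call that held in 4 of 12 fits and was at 0.133 without untreated KO replicate 2. Of 9 counted genes that start inside the stretch and are not among the 8, these 3 were tested and 4 were at 0 in all libraries.

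WNT2, a WNT ligand, was not detected above the floor: 11 libraries held 0 counts and treated WT replicate 3 held 2. Its receptors and secretion genes were measured, 13 of 16 with enough counts to test. In untreated KO cells 4 were higher and 2 lower than in WT, against 11.7% and 10.9% of all tested genes, with a median log2 difference of 0.43. This list too was not split by chromosome. FZD3, a frizzled receptor, was 46.8 ± 2.96 CPM against 2.10 ± 0.391 (log2 4.48, SE 0.22, edgeR adjusted p = 3.48e-07) and remained higher in treated KO cells at 56.7 ± 3.68 against 6.01 ± 0.170 CPM (log2 3.24, SE 0.20, edgeR adjusted p = 1.12e-06). It also rose with butyrate in WT cells (log2 change 1.52, SE 0.20, edgeR adjusted p = 0.00514).

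FZD5 (log2 1.15, edgeR adjusted p = 0.00190) and RYK, a WNT receptor of another class (0.94, edgeR adjusted p = 0.00602), were higher in untreated KO cells in 12 of 12 fits, and the coreceptor LRP6 (0.65, edgeR adjusted p = 0.0258) in 7. FZD1 (-1.44, edgeR adjusted p = 0.0416) and FZD4 (-1.69, edgeR adjusted p = 0.0244) were lower in 5 and 8 of 12 fits. In treated cells 5 of the 13 were higher in KO and 0 lower, against 10.1% and 8.89% of all tested genes: FZD2, FZD3, FZD5, FZD7 and RYK, with log2 differences of 1.2999, 3.24, 0.72, 1.15 and 0.88. They passed in 9, 12, 7, 5 and 10 of the 12 leave-one-out fits, and without treated KO replicate 2 the edgeR adjusted p was 0.0814 for FZD2, 0.140 for FZD5 and 0.163 for FZD7. RYK was at 0.0511 without treated WT replicate 2.

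CTTNBP2, the cortactin partner at the far end of the stretch, was detected in KO and hardly in WT cells. Untreated WT libraries held 0 counts each and treated ones 0, 3 and 0, while untreated KO replicates held 13, 11 and 29 counts (0.695, 0.523 and 0.969 CPM) and treated ones 23, 24 and 19 (1.06, 0.792 and 0.612 CPM). Each KO library was above each WT library. Against the floor of 3 counts, mean CTTNBP2 was at least 5.44-fold higher in untreated and at least 6.497-fold higher in treated KO cells. With butyrate its log2 level in KO cells differed by 0.16 (SE 0.90, edgeR adjusted p = 0.953).

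Cortactin itself (CTTN) and the striatins STRN, STRN3 and STRN4, phosphatase scaffolds that bind CTTNBP2, passed in none of the 4 comparisons. In treated cells PPP2R1A, the phosphatase scaffold subunit, was higher in KO (log2 0.61, SE 0.19, edgeR adjusted p = 0.0421), in 1 of 12 fits. CTTNBP2NL, a relative of CTTNBP2, rose with butyrate in WT cells (log2 change 1.51, SE 0.30, edgeR adjusted p = 0.0265), in 7 of 12 fits and at 0.118 without untreated WT replicate 2. In KO cells its change did not pass (log2 0.99, SE 0.30, edgeR adjusted p = 0.0899).

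Between genotypes, 5 of the 7 tested genes of the stretch had KO and WT libraries that did not overlap in untreated cells, 3 lower and 2 higher in KO. Among all tested genes 42.3% did not overlap, 20.2% lower and 22.2% higher, and 22.6% passed the test. In treated cells it was 6 of 7, 4 lower and 2 higher, where 33.9% of all tested genes did not overlap, 16% lower and 17.9% higher, and 19% passed. Nothing is read from these counts, since the genotype difference chose the stretch. Over all 7 partner lists, 62 of 76 genes were tested. In untreated KO cells 9 (14.5%) were higher and 11 (17.7%) lower, against 11.7% and 10.9% of all tested genes, and in treated cells 9 (14.5%) were higher and 2 (3.23%) lower, against 10.1% and 8.89%. Butyrate called 2 higher and 1 lower in WT cells, where 1.8% and 0.55% of all tested genes were, and 1 higher and 0 lower in KO cells, where 2.8% and 0.595% were. With the replicate number as a block, 6 of the 62 were lower in treated KO than treated WT cells, 4 rose and 2 fell with butyrate in WT, and 6 rose with butyrate in KO cells.

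Beyond the stretch, chromosome 7 as a whole was lower in KO cells. Its 723 other tested genes had a median log2 difference of -0.78 in untreated and -0.86 in treated cells, against 0.02 and -0.00 over all tested genes. In untreated cells 269 of them (37.2%) were lower and 28 (3.87%) higher, and in treated cells 279 (38.6%) and 24 (3.32%). CAPZA2 (-0.42 and -0.80) and ST7 (-0.48 and -0.61) lay between that chromosome median and 0, TES, CAV2 and CAV1 lay below it, and MET and CTTNBP2 lay above 0. Without treated WT replicate 1 the treated ST7 difference was 0.01. What part the chromosome's shift has in any 1 of the 8 genes, or in listed partner genes on chromosome 7, was not tested.

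The 5 nearest tested genes on each side were lower in KO or did not pass. From the CAV1 start, they begin at -4101.8 to -3408.3 kb on the TES side. On the CTTNBP2 side they begin at 1659.2 to 4463.7 kb. On the TES side, GPR85, an orphan receptor (log2 -4.34, SE 0.70, edgeR quasi-likelihood adjusted p = 7.91e-04), and SMIM30 (-1.11, SE 0.18, edgeR adjusted p = 7.08e-04) were lower in untreated KO cells, while IFRD1, LSMEM1 and TMEM168 did not pass. On the CTTNBP2 side, CPED1 (-2.20, SE 0.28, edgeR adjusted p = 1.48e-04) and LINC02476 (-1.11, SE 0.36, edgeR adjusted p = 0.0418) were lower, while LSM8, TSPAN12 and ING3 did not pass. LINC02476 passed in 7 of 12 leave-one-out fits, with an edgeR adjusted p of 0.207 without untreated WT replicate 2. In treated KO cells 3 of the 5 on the TES side (GPR85, SMIM30 and IFRD1) and 2 of the 5 on the CTTNBP2 side (CPED1 and LINC02476) were lower, against 8.89% of all tested genes and 38.6% of those on chromosome 7. SMIM30 and CPED1 passed there in 12 of 12 fits, GPR85 in 9 (0.0736 without treated KO replicate 3), LINC02476 in 8 (0.0815 without treated KO replicate 2) and IFRD1 in 5 (0.142 without treated WT replicate 1). GPR85 also rose with butyrate in KO cells (2, 1 and 9 counts untreated, 31, 101 and 48 treated, log2 change 3.67, SE 0.69, edgeR adjusted p = 0.0179), in 9 of 12 fits and at 0.0932 without untreated KO replicate 2. In WT cells the GPR85 change did not pass (log2 1.52, SE 0.58, edgeR adjusted p = 0.189), with each treated library above each untreated one.

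**Figure D4:**
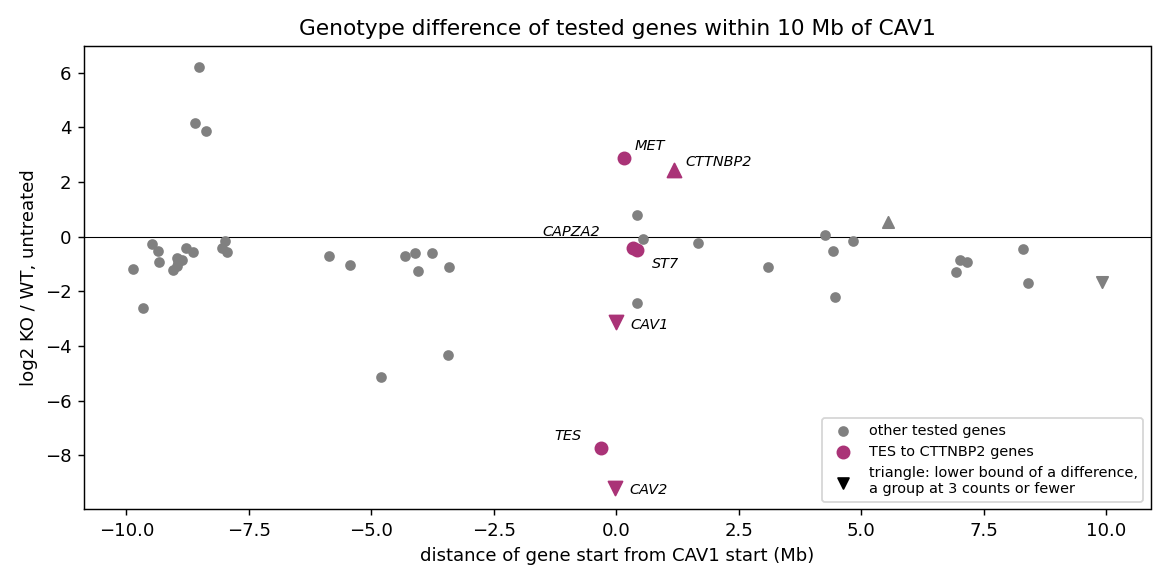
Log2 difference of untreated KO over untreated WT cells (vertical axis) for 50 tested genes that start within 10 Mb of CAV1, by distance from the CAV1 start in Mb (horizontal axis); purple points are the genes of the stretch, grey points the 43 others, and triangles are bounds against 3 counts where a group had 3 counts or fewer in each library. Of the 43 others, 37 lie below 0, and TES and CAV2 lie below all of them.

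Genes whose levels followed the caveolins most closely over the 12 libraries were found by Pearson's r of log2 CPM, given as a description, since the libraries share genotype and treatment. For CAV1 they were LINC01419 (r = 0.982), ZNF483 (0.978) and C9orf47 (0.973). LINC01419, a long noncoding RNA, was 1.46 ± 0.322 CPM in untreated WT and 5.91 ± 4.42 in treated WT cells, and ZNF483, a zinc finger gene, was 1.48 ± 0.831 and 5.10 ± 2.45 CPM. All 3 were at or near 0 in KO cells. For CAV2 they were ANK3, an ankyrin (r = 0.998), NKX6-3, a homeobox gene (0.996), and ARHGAP42 (0.996). ANK3 was 67.8 ± 12.6 CPM in untreated WT and 42.4 ± 25.004 in treated WT cells, with 0 in the untreated KO libraries.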

How the data were processed

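RNA sequencing was compared in 12 libraries, 3 per group. The deposited values are whole-number read counts per gene symbol, with none of the columns left unused (0). Per the submitters' processing notes, FastQC 0.12.1, STAR 2.7.11b and the genome build hg38 were used, with no role or order given. The counter, annotation, strand setting and filters are not given in the sources used here. Totals of 19963594 to 30348538 counts set a floor of 3 counts at 0.0953 to 0.162 CPM per library, for counting error only. Counts were fitted as deposited with edgeR 4.0.16 and limma 3.58.1 in R 4.3.3: filterByExpr (minimum count 10, 15805 genes kept), TMM scaling, 1 mean per group over all 12 libraries, quasi-likelihood F-tests and Benjamini-Hochberg adjustment over all tested genes at 0.05. Scaled CPM are counts per 1000000 of the TMM-scaled library. Each SE is the size of the log2 change divided by the square root of the F statistic of its test. DESeq2 1.42.0 (Wald test), other scalings and filters, a replicate block and leaving out libraries were the alternatives. Scripts were tested on simulated data.

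The genes, partner lists, markers and rules were chosen with earlier results of these data known. Named genes are the 8 genes, the listed genes, counted genes that start inside the stretch, 5 tested neighbours per side, and the 3 genes most correlated with CAV1 and with CAV2. Deviations from group means correlated by 0.147 to 0.595 in same-numbered pairs across compared groups, and by -0.512 to 0.343 in differently numbered ones. Replicate numbers were therefore used as a block in an alternative fit. The main fit, its p-values and the leave-one-out fits did not use this pairing. The pairing rests on the data, as the labels give a number and no shared batch. With the number as a block, 8.61% of all genes passed for butyrate in WT, 11.7% for butyrate in KO, 33% and 29.2% between genotypes in untreated and treated cells, and 3 genes for the interaction. Gene positions and promoters are RefSeq's (GRCh38.p14) and exon lengths GENCODE's. No 2 replicates agreed within sampling noise (chi-square per degree of freedom 37.2 or more).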

Additional observations from a re-analysis of the deposited data

How the results depend on the processing

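None of the 6 genes tested for butyrate in KO cells, or of the 5 tested for the interaction, passed under any alternative that gave them a value, including each of the 12 fits without 1 library (0 to 0). CAV2 is counted there although its few KO counts, for which it was chosen, left little to test. For butyrate in WT cells the count was 0, and 1 (CAV1) without the 4 libraries numbered 1; it ranged from 0 to 1 when 1 library was left out. The count without overlap between genotypes ranged from 5 to 6 in untreated cells and stayed at 6 in treated cells when 1 library was left out. With the replicate block, listed partners called higher with butyrate numbered 6 in KO and 4 in WT cells (1 and 2 without it), those called lower with butyrate in WT 2 (1 without it), and those lower in treated KO than treated WT cells 6 (2 without it). It changed no call among the 8 genes. For the same counts DESeq2 gave 5 higher with butyrate in KO and 5 lower in treated KO cells, library size alone gave 1 lower in treated KO cells, and leaving out the libraries numbered 1 gave 8 and 7 higher with butyrate in KO and WT, 5 lower with butyrate in WT and 5 lower in treated KO cells.

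Leaving out 1 library at a time, listed partners called with butyrate ranged from 0 to 3 higher in KO, 1 to 2 higher in WT and 0 to 2 lower in WT. Between genotypes they ranged from 6 to 10 higher (6 without untreated WT replicate 3) and 5 to 14 lower (5 without untreated WT replicate 3, 14 without treated WT replicate 1) in untreated cells, and from 4 to 9 higher (4 without treated KO replicate 2) and 1 to 4 lower in treated cells. Caveola genes lower in untreated KO ranged from 2 to 3 and TES partners from 2 to 5.

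Log2 changes of the 8 genes that turned sign were none of them called. Without the libraries numbered 1, butyrate gave -0.18 for CAPZA2 in WT and -0.12 for CTTNBP2 in KO. DESeq2 gave -0.12 for TES with butyrate in KO, and library size alone, which shifted the median of all genes by 0.12 for butyrate in KO and 0.11 for the interaction, gave 0.025 for the ST7 interaction. Leaving out 1 library, butyrate in WT ranged from -0.83 to 0.31 for MET, -0.83 to 0.21 for ST7 and -0.80 to 0.23 for TES. In KO it ranged from -0.31 to 0.0024 for CAPZA2, 0 to 3.92 for CAV2, -0.063 to 0.44 for CTTNBP2 and -3.25 to 1.04 for TES. The interaction ranged from -0.86 to 0.28 for MET, -0.59 to 0.52 for ST7 and -2.75 to 1.54 for TES. The causes were not tested. Requiring 10 counts in every library left 11701 genes, CAPZA2 and ST7 of the 8, and no value for the others. Partner and neighbour genotype calls were also lost under library size alone (ZYX, FZD1 and LINC02476 untreated, FZD2, FZD7, TLN1 and IFRD1 treated), with no filter (CAVIN4, FZD1 and ST7-OT4 untreated, FZD7 and PPP2R1A treated) and without the libraries numbered 1 (CAVIN1 with an edgeR adjusted p of 0.125, CAVIN4, LRP6 and ST7-OT4 untreated, FZD5, TLN1, GPR85 and IFRD1 treated). Depth limits all of the 8 genes but CAPZA2 and ST7, since the others had 3 counts or fewer in at least 1 library.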

Other observations

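Genes farther from the stretch but within 10 Mb of CAV1 also differed between genotypes in untreated cells, and these were chosen after their values were seen. LAMB1, a laminin chain, was 912 ± 106 CPM in untreated KO against 51.2 ± 20.3 in untreated WT cells (log2 difference 4.15, edgeR quasi-likelihood adjusted p = 7.81e-05). NRCAM, a neuronal adhesion molecule less than 1 Mb from LAMB1, was 31.7 ± 13.0 against 2.16 ± 0.522 CPM (3.86, edgeR adjusted p = 9.25e-05), and LAMB4 beside them was 6.28 ± 2.502 against 0.0672 ± 0.116 CPM (6.21, edgeR adjusted p = 0.00296). The untreated WT libraries held 0, 0 and 6 LAMB4 counts, so the size of that difference rests on few reads. DOCK4, an activator of small GTPases, went the other way at 0.272 ± 0.217 against 9.52 ± 0.846 CPM (-5.13, edgeR adjusted p = 1.20e-04), on 3, 11 and 4 counts in the untreated KO libraries. Of the 43 other tested genes in the window, 4 were higher and 13 lower in KO, against 11.7% and 10.9% of all tested genes and 3.87% and 37.2% of those on chromosome 7.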
